A study of Mus musculus with 10 samples.

Results

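A miR-342-3p sponge was compared with a scramble sponge in iKCs, a mouse cell line, by bulk RNA sequencing of polyadenylated RNA. The 3 sponge and 2 scramble libraries were chosen by their titles, out of 10 libraries in the series. The other 5 libraries carried a miR-342-3p overexpression vector (n = 3) or a mutated miR-342-3p control (n = 2) and entered the same fit. All cells had been transduced with a lentiviral vector and sorted for viability and for mOrange, a fluorescent protein that marks transduced cells. The labels give no genotype beyond the vector and do not spell out the name iKCs. All libraries came from this 1 line, and the titles call them biological replicates. The sources used here do not say whether separate cultures or transductions lie behind them, so the tests measure the spread among libraries, which may be technical.

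A microRNA is a short RNA that guides an Argonaute protein to messenger RNAs, mainly through pairing of its seed, bases 2 to 8, with sites in 3′ untranslated regions (UTRs). Target transcripts are then destabilised or translated less. A sponge is a transcript with repeated binding sites that occupies the microRNA, so that targets would be released, while a scramble sponge has the same form without those sites. miR-342-3p is processed from an intron of Evl, an actin regulator of the Ena/VASP family, and is known from blood and macrophage lineages. The comparison asks which transcripts depend on miR-342-3p in these cells.

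The mature microRNA is shown because its seed defines the sites searched. The sequence is that of RefSeq (GRCm38.p6, chr12:108658680-108658702, plus strand), with the seed in capitals. Among the 1679 mature mouse microRNAs in the table, no other shared the seed CUCACAC.
miR-342-3p: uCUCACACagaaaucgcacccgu

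The sites below are the 8mer of 5 genes that were lower with overexpression than with its mutated control. Each line gives 30 bases of the 3′ UTR (GENCODE vM21, GRCm38), 5′ to 3′ on the strand of the transcript, with the 8mer GTGTGAGA in capitals. The 8mer of Slc7a11 lies at chr3:50365314-50365321 (minus strand), base 6981 of a UTR of 7364 bases. That of Wasl lies at chr6:24615993-24616000 (minus strand) and that of Ednrb at chr14:103816940-103816947 (minus strand). That of H2aw lies at chr11:58955799-58955806 (plus strand) and that of Cd36 at chr5:17782190-17782197 (minus strand).
Slc7a11: agtgtacaaacatgtgatGTGTGAGAtaaa
Wasl: acaagggagtttaattatGTGTGAGActga
Ednrb: gcagaaaggtgtgcgcgcGTGTGAGAggga
H2aw: aggttctggttaaactagGTGTGAGAgtac
Cd36: tataattttatagcagcaGTGTGAGActga

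Depth was 43089643 to 50982195 counts in the sponge libraries and 33857569 and 57708592 in the scramble libraries. Sponge replicate 3 stood apart on the first principal component of these 5 libraries (40.5% of the variance), at −32.2, with the other 4 between −0.98 and 16.2. Of 33 Kupffer cell and macrophage markers, 27 were above 1 CPM (counts scaled to the library total) in all 5 libraries, among them Csf1r, Adgre1, Cd68 and C1qa. The Kupffer cell markers Clec4f and Timd4 had 0 counts in all 5, which allows up to 0.0886 CPM in the shallowest. Vsig4, of the same list, had 7 counts over all 5 libraries. The summed level of that list was 14290 to 15480 CPM with the sponge and 14590 to 15510 CPM with the scramble. Of 14 hepatocyte markers, 9 had 0 counts in all 5, Alb among them. The list summed to 47.05 to 52.8 CPM with the sponge and 55.7 to 57.6 CPM with the scramble, nearly all of it Ass1, and its part in the results was not tested. Endothelial and stellate markers summed to 184 to 206 against 180 to 209 CPM, and lymphocyte, neutrophil and erythroid markers to 1.97 to 2.56 against 2.48 to 2.62 CPM. Most of the endothelial and stellate sum was Vwf, at 140.5 to 161.9 against 136.2 to 161.2 CPM. Of the 19 genes in that list, 6 were above 1 CPM in all 5 libraries, and Clec4g, Des and Lrat had 0 counts. In bulk RNA, fewer cells of a type and less RNA per cell cannot be told apart.

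The perturbation itself was not visible in these libraries. Mir342, the hairpin gene, had 0 counts in all 5, and mature microRNAs are not captured in polyadenylated RNA, so whether the sponge lowered miR-342-3p is not known. Evl, the host gene, had 85.2, 95.9 and 89.1 CPM with the sponge and 86.8 and 88.7 CPM with the scramble. The groups overlapped (log2 fold change 0.04, SE 0.08). It was −0.01 without sponge replicate 2. The machinery that executes repression was measured as well: of 27 genes tested among the Argonaute, Dicer, Drosha, GW182 and deadenylation factors, 14 lay above 0 and 13 below, from −0.05 (Tut7) to 0.12 (Ago4). The 95% interval of each of the 27 lay within 1.5-fold. The sponge libraries did not share a direction. Their list medians of log2 CPM minus the scramble mean were 0.07, 0.08 and −0.15, with the scramble libraries at −0.02 and 0.02. The median log2 fold change of the list was −0.03 without sponge replicate 2 and 0.07 without sponge replicate 3.

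No single transcript passed the adjusted threshold between sponge and scramble. With edgeR's quasi-likelihood test 0 of 15767 genes passed an adjusted p of 0.05 (0%), and each adjusted p was 1. At an unadjusted p under 0.05 there were 368 genes (2.33%), 112 higher (0.71%) and 256 lower (1.62%). If no gene differed, this threshold would give a share of 0.05, so 2.33% is no excess. The groups did not overlap in 2396 genes (15.2%), and the median log2 fold change of all genes was −0.001. Groups of 3 and 2 libraries often separate by order alone, so the 15.2% by itself shows no excess either. By the same fit, 85 genes (0.539%) were called for overexpression against its mutated control. DESeq2 called 1 gene for the sponge and limma-voom 0. The counts of sponge replicate 3 and of scramble replicate 1 stand in 1 joined field of the deposited table and were split here. Without these 2 libraries 1 scramble library is left, so that fit does not test the split.

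The intervals limit what size of difference these data allow. At a mean log2 CPM of at least 2 there were 10320 genes, and the 95% interval of the fold change lay within 1.5-fold for 10121 (98.07%). Their median SE was 0.0871 on the log2 scale. In that range no gene had an estimate beyond 2-fold, and 6 had one beyond 1.5-fold. They were Il1b, Ccnd2, Gpr31c, Sh2d6 and Slc7a11 on the lower side and the unnamed gene ENSMUSG00000120024 on the higher side. Below that level estimates spread widely, as the plot of fold change against level shows, and 89 of all tested genes exceeded 2-fold.

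**Figure D1:**
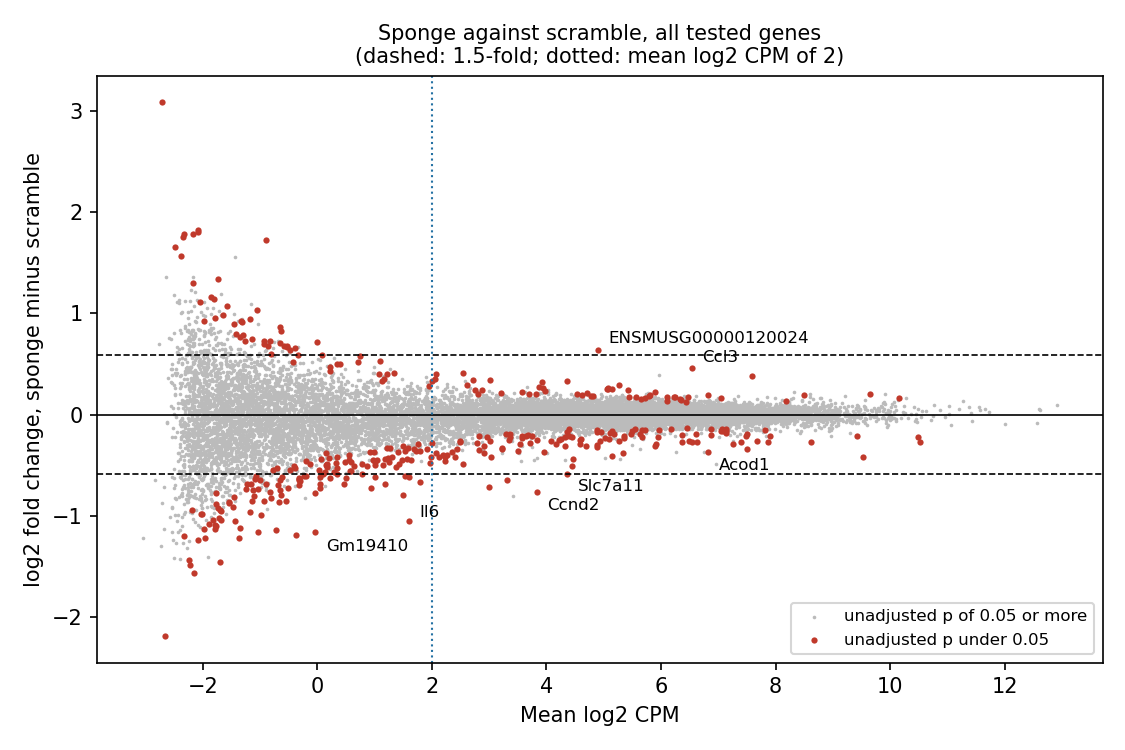
log2 fold change, sponge (n = 3) minus scramble (n = 2), against mean log2 CPM for 15767 genes; red points have an unadjusted edgeR p under 0.05. To the right of a mean log2 CPM of 2, 6 genes lie outside the dashed lines of 1.5-fold, and 0 genes in the plot passed the adjusted threshold.

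The gene with the smallest p was ENSMUSG00000120024, with 32.6, 33.2 and 29.8 CPM in the sponge libraries and 23.6 and 17.5 CPM in the scramble libraries. All sponge libraries were above both scramble libraries. The log2 fold change was 0.64 (SE 0.12, edgeR adjusted p = 1). It is the gene called by DESeq2 (DESeq2 adjusted p = 0.0245). In the coordinates of the deposited table it spans bases 83539329 to 83541209 of chromosome 11, plus strand. Its exons share 266 bases with those of Ccl3 (83538670 to 83540181, minus strand). Counting did not use strand, so reads in the shared bases cannot be assigned to either gene. The same limit holds for other genes named here, among them Slc15a3, which shares 1541 exonic bases with Tmem132a, H2aw, which shares 708 with Trim17, and Psph, which shares 452 with Cct6a.

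Ccl3, a chemokine for monocytes and macrophages, had 84.1, 82.4 and 93.1 CPM with the sponge against 70.0 and 56.4 CPM with the scramble. The log2 fold change was 0.46 (SE 0.15), the highest of the 10 highest genes by the naming rule. Ccl2, the main monocyte attractant of the CC family, had 147, 124 and 162 against 112 and 110 CPM (0.38, SE 0.13). In both genes each sponge library exceeded both scramble libraries. The other 8 of the highest 10 were Sapcd2, Tcp11l2, Wfdc17, Mcrip2, Aldh1l1, Mgst3, Copz2 and Tns1, from 0.34 down to 0.26. Mgst3 is a microsomal glutathione transferase, Aldh1l1 a folate enzyme, and Tns1 links integrins to actin.

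The lowest of the 10 lowest genes by the naming rule, which takes a log2 CPM mean of 2 or more, was Ccnd2, cyclin D2 of the G1 phase, with 6.335, 4.47 and 8.41 CPM in the sponge libraries and 8.92 and 12.5 CPM in the scramble libraries. Sponge replicate 3 lay just under the lower scramble library, and the log2 fold change was −0.76 (SE 0.29). Gpr31c, a G protein-coupled receptor, had −0.71 and Sh2d6, an SH2 adaptor, −0.64. Clec4n, which encodes the C-type lectin Dectin-2, had 14.5, 19.6 and 14.4 against 23.2 and 22.8 CPM (−0.50, SE 0.17). Il1rn, the interleukin-1 receptor antagonist, had 17.2, 20.3 and 19.1 against 24.4 and 26.6 CPM (−0.44, SE 0.10). H2-M2, Slc6a12, Fscn1 and Ndst3 lay between −0.49 and −0.42. Each of these 20 genes had groups that did not overlap, which the naming rule required.

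**Figure D2:**
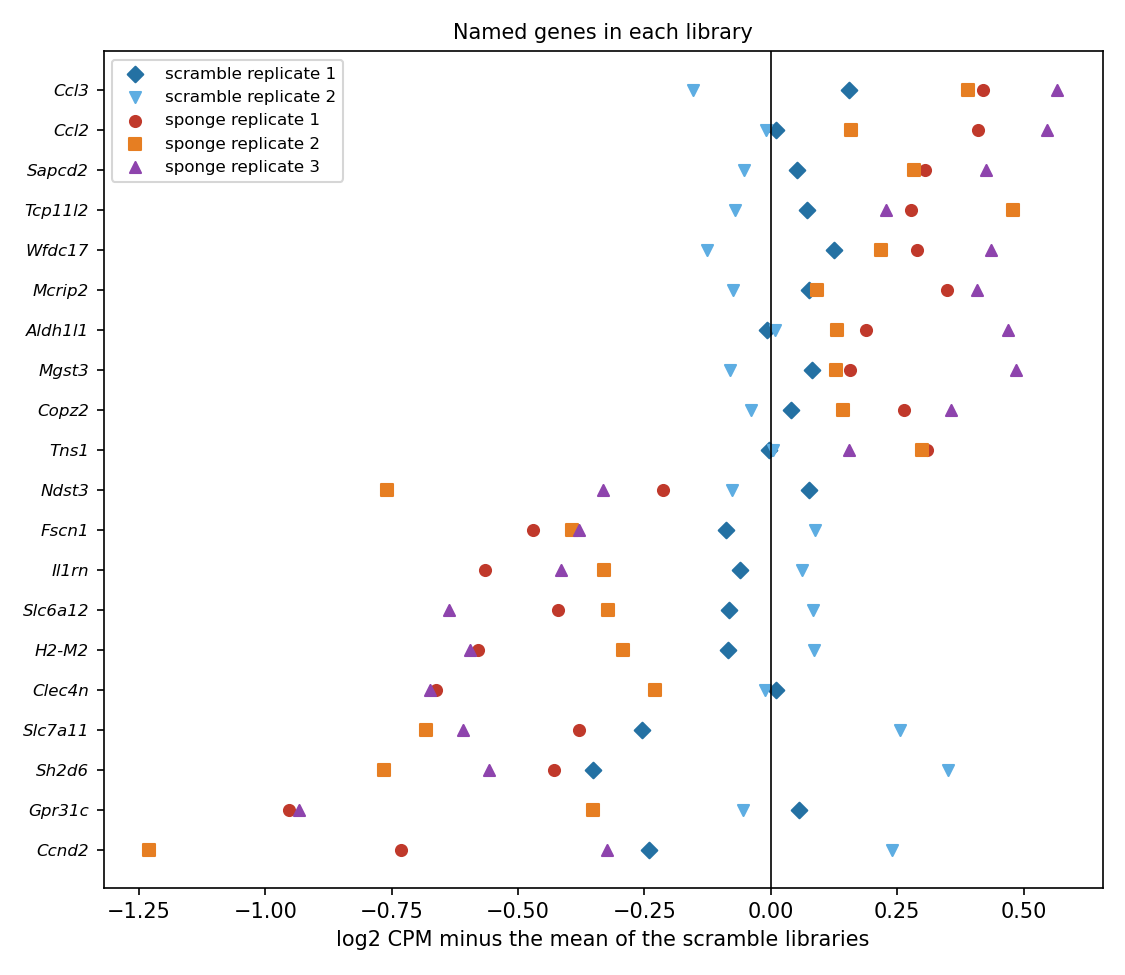
log2 CPM minus the mean of the 2 scramble libraries, in each of the 5 libraries, for the 10 highest and 10 lowest genes by the naming rule. The scramble libraries of Ccl2, Aldh1l1, Tns1 and Clec4n lie close together. Those of Sh2d6 (−0.351 and 0.351), Slc7a11 (−0.255 and 0.255) and Ccnd2 (−0.241 and 0.241) lie furthest apart.

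Slc7a11 is the light chain of the cystine and glutamate antiporter, which brings in the cystine used for glutathione. It had 14.4, 11.6 and 12.3 CPM with the sponge and 15.7 and 22.3 CPM with the scramble. The sponge libraries were all lower (log2 fold change −0.59, 95% interval −0.96 to −0.21, edgeR adjusted p = 1). The value rested on scramble replicate 2: it was −0.30 without that library and −0.81 without scramble replicate 1. The scramble libraries differed from each other by more than scramble replicate 1 differed from sponge replicate 1. Sh2d6 behaved in the same way, with −0.23 without scramble replicate 2 and −0.93 without scramble replicate 1. In Ccnd2 the value was −0.48 without scramble replicate 2 and −0.55 without sponge replicate 2, against −0.97 without scramble replicate 1 and −1.01 without sponge replicate 3.

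Slc7a11 was also lower with overexpression than with its mutated control, at −1.49 (edgeR adjusted p = 0.00632). The directions of the 2 opposite vectors were thus the same for this gene, each against its own control. Slc3a2, the heavy chain of the same transporter, lay at −0.08 (SE 0.12). In the list of 36 glutathione, NRF2 and iron genes, 16 lay above 0 and 20 below, with a median of −0.02. Hmox1, heme oxygenase, and Gclm, the modifier subunit of the first glutathione enzyme, had unadjusted p-values under 0.05 as Slc7a11 did, at −0.21 and −0.15, which makes 3 of 36 beside 2.33% of all genes. The groups did not overlap in 27.8% of the list, 7 genes lower and 3 higher, beside 15.2% of all genes. The 95% interval of 35 of the 36 lay within 1.5-fold.

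Genes with a seed site of miR-342-3p were set beside genes without one, to ask whether site genes as a whole lay higher with the sponge. Genes with a match to GTGTGAG (7mer-m8, which includes the 8mer GTGTGAGA) in the longest annotated 3′ UTR numbered 1846, against 10227 genes with a UTR and no such site. The motif was read on the transcript strand only, and it was held by 15.3% of tested genes with a UTR. Their mean log2 fold change was −0.012 against −0.0067, a difference of −0.0056. By library the difference from the scramble mean was 0.0185, 0.0123 and −0.0453 in sponge replicates 1, 2 and 3, so the sponge libraries did not share a direction. The scramble libraries lay at −0.0138 and 0.0138.

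The 575 genes with an 8mer gave −0.0057, the 337 genes with at least 2 sites −0.0069 and the 1084 genes with a 7mer-A1 (TGTGAGA) alone −0.0060. The same difference for 7 other microRNA seeds ran from −0.0101 (miR-155-5p) to 0.0011 (let-7a-5p). The value for miR-342-3p thus lay within the range of seeds that the sponge was not built for. In the overexpression comparison the same site genes lay 0.0618 lower than the others, on the log2 scale. Other seeds and UTR length were not examined in that comparison, so whether the value is particular to this seed was not tested.

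Site genes have long UTRs, with a median of 2559.5 bases against 957, and long UTRs moved with 1 library. In sponge replicate 3 the quintile of genes with the longest UTRs lay 0.164 lower on the log2 scale than the quintile with the shortest. In sponge replicates 1 and 2 it lay 0.052 and 0.0541 higher. Within quintiles of UTR length the difference of site genes from the others was −0.081, −0.0265, −0.0128, 0.0233 and 0.0013 from the shortest to the longest. The shortest quintile held 44 site genes and the longest 920. Without sponge replicate 3 the difference over all lengths was 0.0143, without scramble replicate 2 it was 0.0112, and without scramble replicate 1 it was −0.0195.

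**Figure D3:**
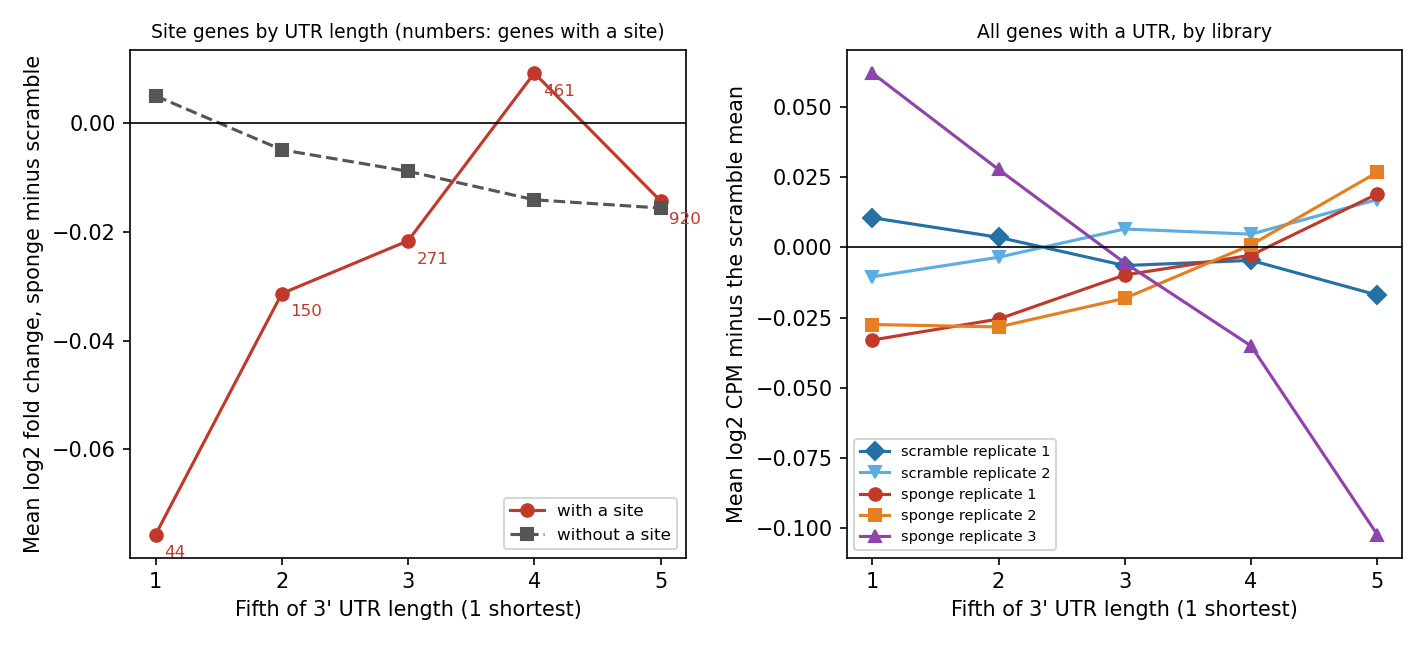
Left, mean log2 fold change of genes with and without a 7mer-m8 or 8mer site of miR-342-3p, by quintile of 3′ UTR length. Right, mean log2 CPM minus the scramble mean of all genes with a UTR in each library. Sponge replicate 3 declines from 0.062 to −0.102 with UTR length, while sponge replicates 1 and 2 end above 0.

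A narrower reading used the genes called lower with overexpression than with its mutated control. The overexpression and sponge comparisons share no library, but they come from the same fit, with a shared estimate of the spread of each gene. Of 46 genes called lower with overexpression, 8 had an 8mer. In the sponge comparison 7 of these 8 lay above 0, with a median of 0.07, against 49.3% of all genes. By limma-voom 6 of the 8 did, as Zfp367 lay at 0 to the second decimal. The groups did not overlap in 3 of them on the higher side and in 1, Slc7a11, on the lower side, beside 6.9% and 8.3% of all genes. Without sponge replicate 2, 3 of the 8 lay above 0, and without scramble replicate 2, 5 did.

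The individual values were small beside their intervals. Socs6, a suppressor of cytokine signalling, had 69.1, 64.4 and 62.9 CPM with the sponge and 58.9 and 62.1 CPM with the scramble. All 3 sponge libraries were higher, and the log2 fold change was 0.11 (95% interval −0.02 to 0.25). Cpped1, a phosphatase, had 49.2, 49.3 and 51.4 against 46.6 and 46.4 CPM (0.10, 95% interval −0.03 to 0.24). Cd36, a scavenger receptor for fatty acids and lipoproteins, had 626, 594 and 579 against 560 and 570 CPM (0.09, 95% interval −0.05 to 0.22). In Cpped1 and Cd36, too, the groups did not overlap.

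In Ednrb, Wasl, H2aw and Zfp367 the groups overlapped. Ednrb, the endothelin B receptor, had 37.3, 44.2 and 31.5 CPM with the sponge, on both sides of the scramble values of 35.4 and 35.4 CPM. Its log2 fold change was 0.09 (95% interval −0.20 to 0.38), against −1.26 with overexpression. Wasl, which encodes the actin nucleation factor N-WASP, had 46.9, 47.3 and 39.4 against 43.2 and 43.7 CPM (0.04, 95% interval −0.14 to 0.21). H2aw, a histone H2A gene, lay at 0.05 and Zfp367, a zinc finger gene, at 0.00. Sponge replicate 3 was the lowest of the sponge libraries in Ednrb and Wasl, and Ednrb was −0.04 without sponge replicate 2. The interval of Wasl allows at most a 1.16-fold higher level with the sponge, and that of Ednrb at most 1.30-fold.

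**Figure D4:**
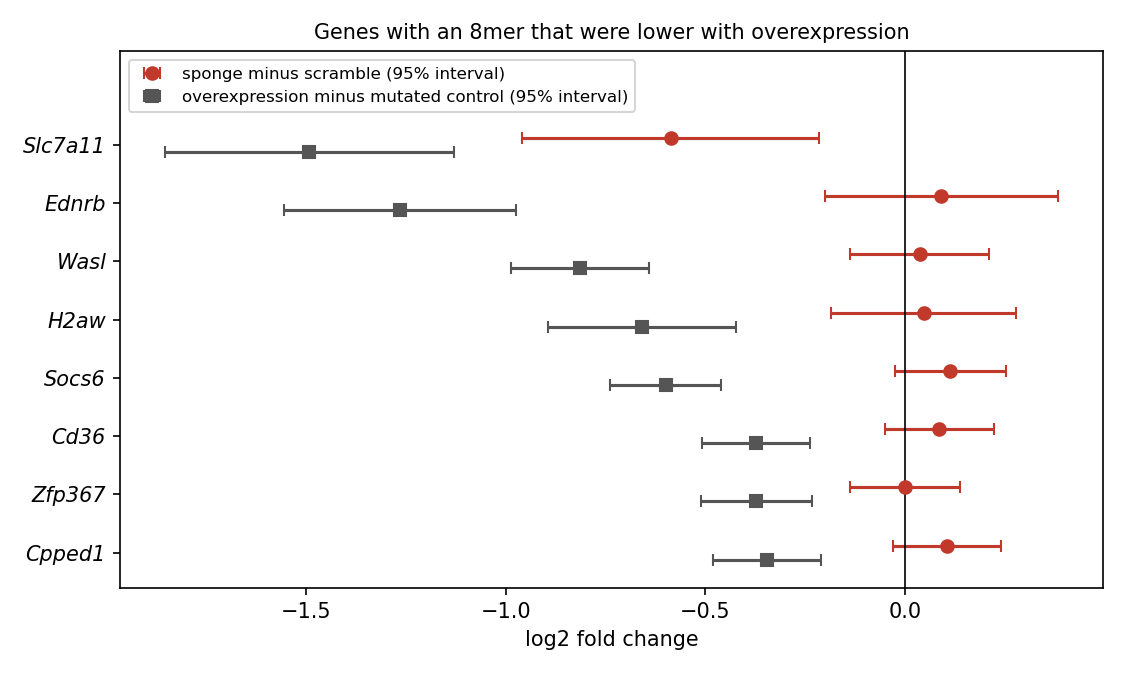
log2 fold changes with 95% intervals of the 8 genes with an 8mer that were called lower with overexpression, for sponge minus scramble (red circles) and overexpression minus mutated control (grey squares). The grey values chose the genes; 7 of the 8 red points lie at or above 0, and Slc7a11 lies at −0.59.

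Over all genes called with overexpression, those 39 called higher had 24 above 0 in the sponge comparison (median 0.03), and those 46 called lower had 19 above 0 (median −0.05), beside 49.3% of all genes. In both sets the majority direction was the one overexpression had. The count of 19 was 12 without sponge replicate 2. Among the 46 lower genes, 9 had an unadjusted p under 0.05 on the lower side with the sponge too (1.62% of all genes did), Slc7a11, Il6, Cd86, Clec4n and Gng4 among them. Hpse, heparanase, at 0.17, and Cnrip1 at 0.25 had one on the higher side (0.71% of all genes did). Among the 39 higher genes, Ccl2 and Aurkb, a mitotic kinase, had one on the higher side and Adam8, a membrane protease, on the lower side. Across all 15767 genes the 2 log2 fold changes had a Pearson r of 0.0807 and a Spearman rho of 0.117. In the 10320 genes at or above a mean log2 CPM of 2 these were 0.196 and 0.183. The 2 comparisons share no library but do share the estimate of spread of each gene. The counts by unadjusted p above are thus not independent of how the genes were chosen, and genes are not independent replicates.

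Of 9 tested genes known from other cells as miR-342-3p targets, 3 were above 0 with the sponge, with a median of −0.04. Apart from Slc7a11, they ranged from −0.07 for Ikbkg, the NF-κB regulator NEMO, to 0.04 for Foxm1, a mitotic transcription factor. Dnmt1, the maintenance DNA methyltransferase, lay at 0.02 and E2f1 at −0.02. The 95% interval of 8 of the 9 lay within 1.5-fold. Among the 575 genes with an 8mer, 2 had an unadjusted p under 0.05 on the higher side and 7 on the lower side, the latter including Slc7a11, Ccl22 (−0.49) and Ndst3 (−0.42). Among the 1846 genes with a 7mer-m8 or 8mer these were 11 and 28, beside 0.71% higher and 1.62% lower in all genes. Of those with an 8mer and an estimate above 0, the smallest p-values belonged to Cbln3, Nupr1l, Impa2, Six5, Plxna4 and Eif4ebp2. Cbln3 and Nupr1l were under 1 CPM in all 5 libraries. Eif4ebp2, a repressor of translation initiation, had 222, 234 and 207 against 200 and 196 CPM (0.16).

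Inflammatory cytokines and chemokines lay mostly lower with the sponge, without a called gene. Of 29 tested, 9 lay above 0 and 20 below, with a median of −0.14 beside −0.001 for all genes, and 0 passed the adjusted threshold. The groups did not overlap in 13 (44.8%), 11 lower and 2 higher, beside 15.2% of all genes (8.3% lower and 6.9% higher). Unadjusted p-values under 0.05 belonged to Il6, Acod1, Ccl5, Cd86 and Socs3 on the lower side and to Ccl3 and Ccl2 on the higher side. These were 24.1% of the list, beside 2.33% of all genes (1.62% lower and 0.71% higher). The medians by library were −0.13, −0.13 and −0.04 in the sponge libraries, with the scramble libraries at −0.05 and 0.05, so sponge replicate 3 lay between the scramble libraries. Without scramble replicate 2 the list median was −0.04.

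Il6, a cytokine of the acute phase, had 1.09, 2.03 and 1.69 CPM with the sponge against 2.73 and 3.83 CPM with the scramble (−1.05, SE 0.27). Acod1, the enzyme that makes itaconate, had 101, 104 and 106 against 124 and 143 CPM (−0.37, SE 0.08). Ccl5, a chemokine for T cells and monocytes, had 30.2, 33.3 and 35.8 against 42.4 and 45.5 CPM (−0.41, SE 0.12). In all 3 genes every sponge library was under both scramble libraries. Il1b had an estimate of −0.80 with an SE of 0.41 and overlapping groups, and Tnf 0.15 with an SE of 0.21. Clec4e, which encodes the lectin Mincle, had 370, 374 and 384 against 440 and 467 CPM (−0.27, SE 0.06). Slc15a3, a lysosomal peptide transporter, lay at −0.29 (SE 0.07). These 2 genes, with Acod1, Gm19410 and ENSMUSG00000120024, had the 5 smallest p-values. Gm19410 was under 1.1 CPM in all 5 libraries.

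The type I interferon response had the most uniform direction and small sizes. Of 41 genes tested, 36 lay below 0 and 5 above, with a median of −0.06. The interval of 39 of the 41 lay within 1.5-fold. The medians by library were −0.08, −0.04 and −0.07 in the sponge libraries, with the scramble libraries at 0.01 and −0.01. Interferon-stimulated genes share their upstream factors, so their number does not add replicates. The groups did not overlap in 10 (24.4%), all lower, beside 8.3% lower in all genes. Mx1, an antiviral GTPase, had 131, 137 and 131 against 140 and 157 CPM (−0.16, SE 0.07), and Ifi205 and Ifit3b had −0.37 and −0.16. Ifit3b has a close paralogue in Ifit3 (−0.13), so reads shared by both may be divided unevenly. With any 1 library left out the list median stayed between −0.09 and −0.06.

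Immediate early genes, which respond within minutes to stimulation, had 22 of 28 members below 0 and a median of −0.08. Sponge replicate 1 carried most of it, with a library median of −0.22 against −0.02 and −0.01 in the other sponge libraries, and the list median was −0.03 without it. Fosb had 91.7, 130 and 68.5 against 150 and 121 CPM. Jun, its partner in the AP-1 factor, went the other way, with 366 ± 26.5 CPM (SD, n = 3) against 320 ± 9.32 CPM (SD, n = 2; 0.20, SE 0.07). Among 6 host genes of macrophage microRNAs, Mir155hg and Mir17hg had unadjusted p-values under 0.05, both lower, beside 2.33% of all genes. Mir155hg, the precursor of miR-155, had 0.889, 1.18 and 1.17 against 1.63 and 1.69 CPM (−0.62, SE 0.21).

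Several metabolic lists differed more among the sponge libraries than between the groups. Genes of the integrated stress response, which follows ATF4, had library medians of −0.02, −0.41 and 0.27 in sponge replicates 1 to 3, around scramble values of −0.08 and 0.08. The list median was −0.03, with 9 of 23 above 0, and the groups overlapped in all 23. It was 0.13 without sponge replicate 2 and −0.20 without sponge replicate 3. Psph, a serine synthesis enzyme, shows the pattern, with 22.4, 15.4 and 24.4 CPM around scramble values of 18.3 and 19.6 CPM. Sterol synthesis genes had 23 of 28 above 0 and a median of 0.07, yet library medians of 0.10, −0.19 and 0.26, and the groups overlapped in all 28. Their list median was −0.03 without sponge replicate 3. Glycolysis and hypoxia genes, with a median of 0.03, had library medians of 0.02, −0.15 and 0.17.

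Oxidative phosphorylation genes had 26 of 32 above 0 and a median of 0.05, with library medians of 0.01, −0.02 and 0.18 in the sponge libraries, with the scramble libraries at 0.06 and −0.06. Without sponge replicate 3 the median was −0.02. Cell cycle genes had 24 of 37 above 0 and a median of 0.04, with library medians of 0.02 to 0.03 in the sponge libraries, with the scramble libraries at 0.04 and −0.04. Aurkb had 98.0, 102 and 101 against 92.3 and 85.0 CPM (0.18, SE 0.07) and Aurka 0.18 (SE 0.07). The cyclins Ccnd2 and Ccnd1 lay at −0.76 and −0.44. In Ccnd1 the groups overlapped, with 14.8, 7.53 and 21.2 against 16.1 and 22.9 CPM, here without TMM factors.

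**Figure D5:**
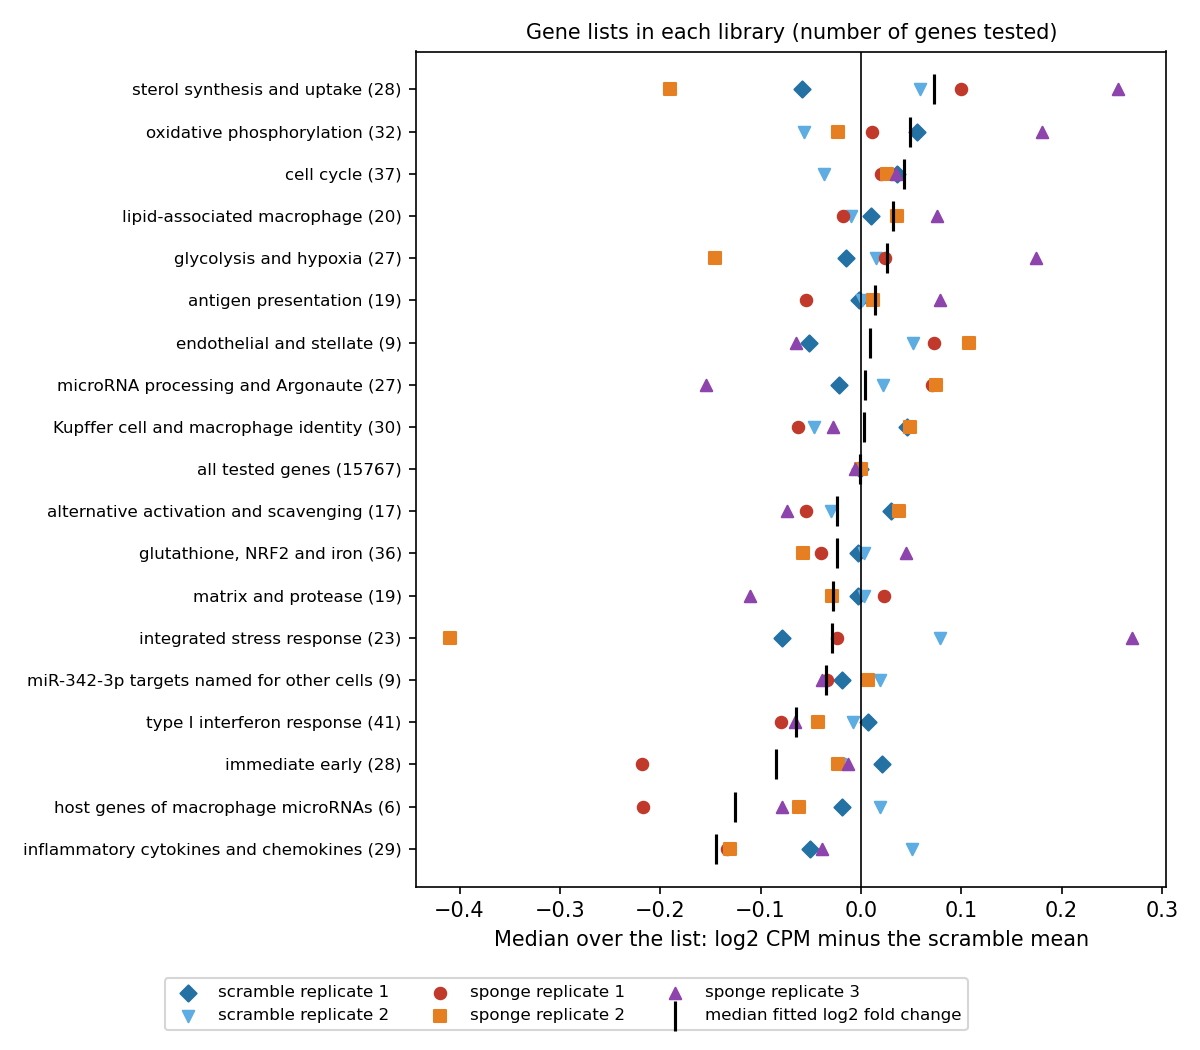
Median over each gene list of log2 CPM minus the scramble mean, in each library, with the median fitted log2 fold change as a black bar. The interferon list has all 3 sponge libraries below both scramble libraries, while the integrated stress and sterol lists have sponge replicates 2 and 3 on opposite sides.

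Genes that define the state of the macrophages had medians near that of all genes. Kupffer cell and macrophage identity genes had 16 of 30 above 0 (median 0.003), lipid-associated macrophage genes 11 of 20 (0.03), antigen presentation genes 10 of 19 (0.01) and alternative activation genes 8 of 17 (−0.02). Matrix and protease genes had 7 of 19 above 0 (−0.03). In these lists some single members had an unadjusted p under 0.05. The shares were 6.667%, 0%, 5.263%, 17.65% and 10.53% in the order given, beside 2.33% of all genes. Cd5l, a secreted scavenger protein of tissue macrophages, had 2.31, 2.38 and 2.72 against 1.99 and 1.49 CPM (0.53, SE 0.21). Cd74, the invariant chain of MHC class II, had 31.1, 39.5 and 35.5 against 46.0 and 46.1 CPM (−0.38, SE 0.13). Stab1, a scavenger receptor, lay at −0.20 and the chemokine Ccl22 at −0.49. Among markers of other cell types, Flt1, a VEGF receptor, lay at −0.36. Ass1, a urea cycle enzyme also made by macrophages, lay at −0.20. In both the groups did not overlap, as in 15.2% of all genes. Of 9 endothelial and stellate genes tested, 5 lay above 0. In that list the groups did not overlap in 2 lower genes and in 1 higher gene, Eng (0.16).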

How the data were processed

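The deposited table holds whole-number counts per gene. Per the file headers, the authors made these counts with featureCounts on GENCODE vM30 by gene name, from read pairs, with no strand (setting 0) and a minimum overlap of 10 bases. The build GRCm38 and the tools STAR 2.7.6a, Subread, Trimmomatic and FastQC 0.11.6 are named per the submitters' processing notes. As vM30 belongs to a later build, coordinates of the table are given without a build. Its command names 12 libraries; 10 are analysed here.

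Lines have 15 fields under 16 names: the counts of sponge replicate 3 and a scramble library are joined. Each was split at the likeliest place (negative binomial, dispersion 0.1), and 51 of 55866 genes with a likelihood ratio under 100 were left out. On 56 pairs of intact libraries joined on purpose, at least 99.9874% of kept genes were right. The replicate numbers of the scramble libraries follow header order only.

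Counts of all 10 libraries were fitted with edgeR 4.0.16 (quasi-likelihood, robust, TMM, expression filter; R 4.3.3), with 6 residual degrees of freedom and 15767 genes tested; the functions were tested on simulated data. Adjusted p-values are Benjamini-Hochberg values. CPM use TMM factors; log2 CPM have a prior count of 2. SE is the log2 fold change over the square root of F. DESeq2 1.42.0, limma-voom (limma 3.58.1), other factors, filters, splits, blocks and libraries left out were alternatives. UTRs were found for 20800 genes (20451 by symbol, 349 by an older one).

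Members and lists were chosen with earlier results of these data known. Named genes were Slc7a11, Evl, the 10 highest and lowest with an unadjusted p under 0.05, non-overlapping groups, a standard symbol and a log2 CPM mean of 2 or more, the 5 smallest p, up to 3 per list, up to 6 with an 8mer above 0 and the 8mer genes lower with overexpression; others named were chosen after their values were seen.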

Additional observations from a re-analysis of the deposited data

How the results depend on the processing

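The count of called genes was 0 in the main fit and with limma-voom, other scaling factors, the 5 libraries alone, other splits, either replicate block and each library left out. DESeq2 called 1 gene, and edgeR without the filter on low counts 24 (5 higher, 19 lower). That fit had a median of 178600 total degrees of freedom per gene against 10.93. At an unadjusted p under 0.05 the count was 368 in the main fit, 394 with limma-voom, 226 with DESeq2, 644 without the filter, 222 with a replicate block by title number and 217 with one by library name number. With 1 library left out it was 253 to 505. Deviations from the group mean of same-numbered libraries correlated at −0.122 and 0.0441 by title and at −0.0441 and −0.126 by library name number. With 2 scramble libraries the deviations mirror each other, so these values cannot show whether same-numbered libraries share a batch. The count above 0 among genes lower with overexpression ranged from 12 (without sponge replicate 2) to 22. Over 88 named genes and 1403 alternative values, 1372 kept direction and call, 15 passed the threshold and 16 turned direction, in 9 genes. With 1 library left out, Evl ranged from −0.00947 to 0.0802, Psph from −0.00955 to 0.300, Pecam1 from −1.05 to 0.00782, Wasl from −0.008003 to 0.117, H2aw from −0.045 to 0.132, Zfp367 from −0.0349 to 0.0381 and Ednrb from −0.0403 to 0.204. With intact libraries only, Psph was −0.056, Dhcr7 −0.0411 and Fdps −0.117. Zfp367 was −0.000042 with limma-voom, −0.00264 with upper quartile factors and −0.00372 with the block by library name number. The cause was not tested. Of 280 list medians, 20 moved by more than the spread between sponge libraries. Which size of difference can be detected with 2 scramble libraries was not tested at any level. The interval of the fold change lay within 1.5-fold for 98.07% of genes at a mean log2 CPM of at least 2. Among all tested genes it did so for 70.78%. At or above that level 6 genes had an estimate beyond 1.5-fold, and the main fit called 0 genes.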
